A study of Homo sapiens with 36 samples.

Results

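The collagen genes of human cells were described over the 4 HCT116 lines and 3 days of auxin treatment of this study. They were chosen by name: protein-coding genes of GENCODE release 44 called COL, a number, A and a number, matched to the count files by Ensembl identifier without its version. This gave 44 collagen genes among the 19942 protein-coding genes in the files, spread over 17 chromosomes. Of the 44 genes, 31 had enough reads to be tested, 10 had reads in at least 1 library but too few, and COL19A1, COL22A1 and COL6A5 had 0 reads in all 36 libraries. A gene could pass this filter through the group in which it was high, so the 31 tested genes are not a neutral sample of the family.

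The samples were RNA-seq libraries from HCT116, an established colorectal cancer cell line. UHRF1 and DNMT1 are the proteins that copy DNA methylation onto the new strand after replication: UHRF1 binds hemi-methylated CpG sites and DNMT1 is the methyltransferase. A mini auxin-inducible degron (AID) tag, by which auxin triggers destruction of the tagged protein, was carried by both proteins in UHRF1-AID/DNMT1-AID, by 1 of them in UHRF1-AID or DNMT1-AID, and by neither in WT, and each line was collected on days 2, 6 and 8 in 3 libraries per group. All 12 groups, WT included, expressed the plant protein OsTIR1 from a doxycycline-inducible promoter and were given 2 µg/mL doxycycline with 20 µM auxinole, an OsTIR1 inhibitor, for a day and then 2 µg/mL doxycycline with 500 µM auxin. WT was therefore a control for auxin, doxycycline and OsTIR1, but not for the tags themselves, and no untreated libraries were analysed here. The study describes the libraries of a group as biological replicates and mentions clones for the AID lines in general. Whether these libraries came from separate cultures or clones is not given in the labels, so the p-values measure only the spread between these libraries.

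Collagens are trimeric proteins of the extracellular matrix built from glycine-rich repeats that wind into a triple helix. Fibrillar collagens form the rope-like fibrils of connective tissue, type IV chains form the sheet of the basement membrane under an epithelium, type VI chains form beaded filaments, and FACIT collagens sit on the surface of fibrils. Most fibrillar collagen in colon tissue comes from stromal fibroblasts, while epithelial cells contribute basement membrane components such as type IV and type XVIII collagen.

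Libraries held 21074536 to 37175136 reads assigned to genes, of which 90.2 to 92.8% fell on protein-coding genes. Collagen genes took 0.0157 to 0.1908% of the protein-coding reads. Levels below are CPM, a gene's reads scaled to a fixed total of protein-coding reads per library after TMM scaling, and comparisons of levels between genes use CPM per kb of exonic length. Each group held 3 libraries, whose values are given in the order of their replicate numbers. Differences are log2 fold changes ± SE from edgeR's quasi-likelihood test over all 36 libraries, and a gene was called when its Benjamini-Hochberg adjusted p over the 15415 tested genes was below 0.05. A degron acts on the protein, so transcript counts of UHRF1 and DNMT1 do not check the labels; UHRF1 transcripts stood at 35.1 to 189 CPM over all libraries, and DNMT1 transcripts at 9.12 to 94.1 CPM in the lines with tagged DNMT1 and at 23.4 to 233 CPM in the other two. Within UHRF1-AID on day 2, replicates 1 and 2 stood apart from replicate 3, with 0.0157 and 0.0160% of protein-coding reads on collagen genes against 0.0299%, and the calls that rest on this group were also made with replicate 3 as its lone library, an alternative added after seeing the data.

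The promoters of 5 collagen genes are printed here because they differ widely in CpG content, CpG being the site that UHRF1 and DNMT1 maintain. COL6A3, COL8A2 and COL5A1 were near 0 in WT and higher in the degron lines, COL6A2 was expressed in WT and higher still in the degron lines from day 6, and COL4A5 was expressed in WT and lower in several degron groups. The sequences are from RefSeq (GRCh38.p14), run 5′ to 3′ on the gene's strand and end at the base before the gene's first annotated base. Capitals mark CpG sites. The stretches are chr2:237414329-237414414 on the minus strand for COL6A3 (86 bases, 2 CpG sites), chr1:36125223-36125472 on the minus strand for COL8A2 (250 bases, 35 sites), chr9:134641553-134641802 on the plus strand for COL5A1 (29 sites), chr21:46097862-46098111 on the plus strand for COL6A2 (28 sites) and chrX:108439588-108439837 on the plus strand for COL4A5 (8 sites).
COL6A3: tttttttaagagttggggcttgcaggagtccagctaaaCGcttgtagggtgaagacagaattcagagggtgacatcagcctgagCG
COL8A2: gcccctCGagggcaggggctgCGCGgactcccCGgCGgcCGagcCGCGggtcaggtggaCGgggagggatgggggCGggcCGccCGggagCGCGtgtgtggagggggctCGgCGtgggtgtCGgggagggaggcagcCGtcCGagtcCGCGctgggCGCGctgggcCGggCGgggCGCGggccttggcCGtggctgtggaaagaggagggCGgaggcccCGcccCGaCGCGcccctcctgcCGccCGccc
COL5A1: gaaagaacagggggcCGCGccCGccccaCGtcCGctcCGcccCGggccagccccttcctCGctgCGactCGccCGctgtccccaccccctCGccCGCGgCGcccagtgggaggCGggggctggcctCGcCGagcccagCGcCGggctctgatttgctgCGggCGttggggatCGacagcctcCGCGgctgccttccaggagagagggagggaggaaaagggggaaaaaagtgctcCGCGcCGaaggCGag
COL6A2: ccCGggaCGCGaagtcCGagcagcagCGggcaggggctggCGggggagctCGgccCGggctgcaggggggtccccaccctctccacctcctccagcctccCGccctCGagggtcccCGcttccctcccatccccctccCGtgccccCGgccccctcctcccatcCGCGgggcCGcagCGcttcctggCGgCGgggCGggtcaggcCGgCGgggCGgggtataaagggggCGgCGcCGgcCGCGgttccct
COL4A5: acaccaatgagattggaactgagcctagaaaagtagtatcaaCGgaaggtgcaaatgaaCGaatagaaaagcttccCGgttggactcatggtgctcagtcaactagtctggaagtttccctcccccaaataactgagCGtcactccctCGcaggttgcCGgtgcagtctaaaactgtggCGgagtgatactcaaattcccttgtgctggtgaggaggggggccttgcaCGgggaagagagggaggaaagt

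RefSeq start-site windows, 250 bases before to 50 after a start, matched 32 of the 44 collagen genes, some with several starts, giving 44 windows. No window was matched for COL1A1, COL1A2, COL2A1, COL3A1, COL5A2, COL6A1, COL6A5, COL8A1, COL9A3, COL14A1, COL20A1 and COL22A1. The 44 windows held a median of 17 CpG sites, against 14 over all 35116 windows of the table and 21 over the 21598 windows of protein-coding genes. Windows of COL18A1, with 46 CpG sites, and of COL8A2, COL4A1, COL4A2 and COL15A1, with 45 each, were at the upper end. Another COL18A1 window held 10. COL6A3, with 4, and COL17A1, with 1, were near the lower end. The GC box GGGCGG, which itself holds a CpG, was found on either strand in 54.5% of the collagen windows, 45.0% of all windows and 56.8% of the windows of protein-coding genes. The TATA box TATAAA was found in 18.2, 11.5 and 9.45% of these windows, and the CCAAT box CCAAT in 31.8, 34.6 and 34.9%. Of the 5 genes printed, COL8A2, COL5A1 and COL6A2 held a GC box, COL6A2 also a TATA box, COL4A5 a CCAAT box and COL6A3 none of these. COL6A3 and COL8A2, the only collagen genes called higher than WT in all 9 comparisons of a degron line with WT, thus differed widely in CpG content, with 4 and 45 sites in their windows.

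In WT the most abundant collagen transcripts per kb of exon were those of type VI and type XVIII collagen. On day 2 COL6A1 stood at 18.4 CPM per kb (range of 3 libraries 16.6 to 20.5) and COL6A2 at 16 (14.2 to 18.3), ranges that overlap, followed by COL18A1 at 8.76 (7.27 to 10.7). Below them came COL9A3 at 3.46, COL4A5 at 2.05 (1.97 to 2.17), COL12A1 at 1.65 (1.53 to 1.83), COL1A1 at 0.818 (0.696 to 0.913), COL9A2 at 0.674 (0.615 to 0.79), COL4A4 at 0.492 and COL13A1 at 0.384 CPM per kb. COL1A1 and COL9A2 overlapped, and the steps from COL18A1 to COL9A3 and from COL4A5 to COL12A1 did not. The third type VI chain, COL6A3, which joins COL6A1 and COL6A2 in the secreted trimer, had almost no reads in WT, and neither did COL1A2, the partner of COL1A1 in type I collagen, which had 0 reads in all 9 WT libraries.

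Collagen transcripts changed between days in WT itself, where no protein was tagged. Time in culture, length of auxin and doxycycline treatment and day of collection cannot be told apart here. The share of protein-coding reads on collagen genes was 0.0305 to 0.0396% on day 2, 0.1068 to 0.1146% on day 6 and 0.0845 to 0.0900% on day 8. Between days 2 and 6, 19 of 31 tested collagen genes rose and 0 fell, where 67.7% of all tested genes were called (35.7% rose and 32.1% fell), and the median log2 difference was 1.45 for the collagen genes and 0.07 for all. COL7A1, the anchoring fibril collagen that ties epithelium to stroma, rose from 0, 0.0555 and 0.162 CPM on day 2 to 2.68, 2.19 and 2.33 CPM on day 6, a log2 difference of 4.97 ± 0.68 (adjusted p = 6.96e-08). COL27A1, a fibrillar collagen of cartilage, rose by 3.94 ± 0.36 and COL11A2, a minor fibrillar chain, by 3.16 ± 0.37 on the log2 scale. All WT libraries of day 6 lay above all of day 2 for these 3 genes.

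From day 6 to day 8 in WT, 12 collagen genes fell and 0 rose (34.5% of all tested genes called, 17.6% up and 17% down). COL7A1 fell by 2.16, COL11A2 by 1.70, COL27A1 by 1.65 and COL12A1 by 1.14 on the log2 scale, so that none of them held its day 6 level. Against day 2, 14 collagen genes were higher on day 8 and 0 lower (59.8% of all called, 30.1% up and 29.7% down). With an offset for GC content and exonic length, 7 of these 14 calls remained and COL7A1, COL11A2, COL12A1, COL6A1, COL9A3, COL4A4 and COL4A5 no longer passed. The tested collagen genes had a median GC content of 58.1% and a median exonic length of 9253 bases, against 49.3% and 4997 bases over all tested genes. Every comparison with WT below therefore uses WT of the same day.

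Of the 31 tested collagen genes, 6.45% were called against WT in DNMT1-AID on day 2, where 3.37% of all tested genes were called. In UHRF1-AID/DNMT1-AID on day 8, 71% were called, near the 68.5% of all tested genes. More were higher than lower in every comparison with WT except UHRF1-AID on day 2. In bulk RNA, more transcript in each cell and more cells with the transcript cannot be told apart. On day 2, 4 genes were higher and 6 lower than WT in UHRF1-AID, where 26.5% of all tested genes were called, 12.1% up and 14.4% down. In DNMT1-AID 2 were higher and 0 lower (3.37% of all called, 2.66% up and 0.714% down), and in UHRF1-AID/DNMT1-AID 5 were higher and 3 lower (27.8%, 16.3% up and 11.5% down). These counts are near the background for UHRF1-AID, at 32.3% of the tested collagen genes, and for UHRF1-AID/DNMT1-AID, at 25.8%.

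On day 6, 13 collagen genes were higher and 1 lower in UHRF1-AID, where 24.7% of all tested genes were called, 14.3% up and 10.5% down. In DNMT1-AID 8 were higher and 2 lower (13.2% of all called, 8.84% up and 4.35% down), and in UHRF1-AID/DNMT1-AID 14 were higher and 4 lower (40.9%, 19% up and 21.9% down). The called shares of the tested collagen genes were 45.2, 32.3 and 58.1%, all above the background of the same comparison. On day 8, 16 were higher and 4 lower in UHRF1-AID (45.3% of all called, 24.2% up and 21% down). In DNMT1-AID 12 were higher and 5 lower (47.5%, 25.1% up and 22.4% down), and in UHRF1-AID/DNMT1-AID 16 were higher and 6 lower (68.5%, 35.7% up and 32.8% down). The called shares of the tested collagen genes were 64.5, 54.8 and 71% on that day, the last 2 closer to their background. The median log2 difference of the tested collagen genes on day 8 was 0.89, 0.83 and 1.26 in the 3 lines, where that of all tested genes was 0.03, 0.02 and 0.03. The 3 lines share the WT libraries of each day, so these counts are not independent of each other.

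The calls differed in how far they rested on single libraries. Of the 121 calls over the 9 comparisons with WT, 90 passed with any 1 library of the 2 groups left out and 84 passed in every alternative run. In UHRF1-AID on day 2, 6 of 10 calls passed with any library left out and 2, COL6A3 and COL8A2, in every alternative. In DNMT1-AID 1 of 2 calls of day 2 and 6 of 10 calls of day 6 passed in every alternative, and on day 6 there were 6 to 8 genes called in place of 10 when a library was removed, the lowest without WT replicate 3, and 16 when the 6 libraries of that comparison were fitted alone. Scaling to library totals alone moved the median of all genes by 0.291 between WT days 2 and 6, by -0.178 for DNMT1-AID on day 8 and by -0.187 for UHRF1-AID/DNMT1-AID on day 8. With that scaling DNMT1-AID on day 6 had 7 higher and 3 lower collagen genes.

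**Figure D1:**
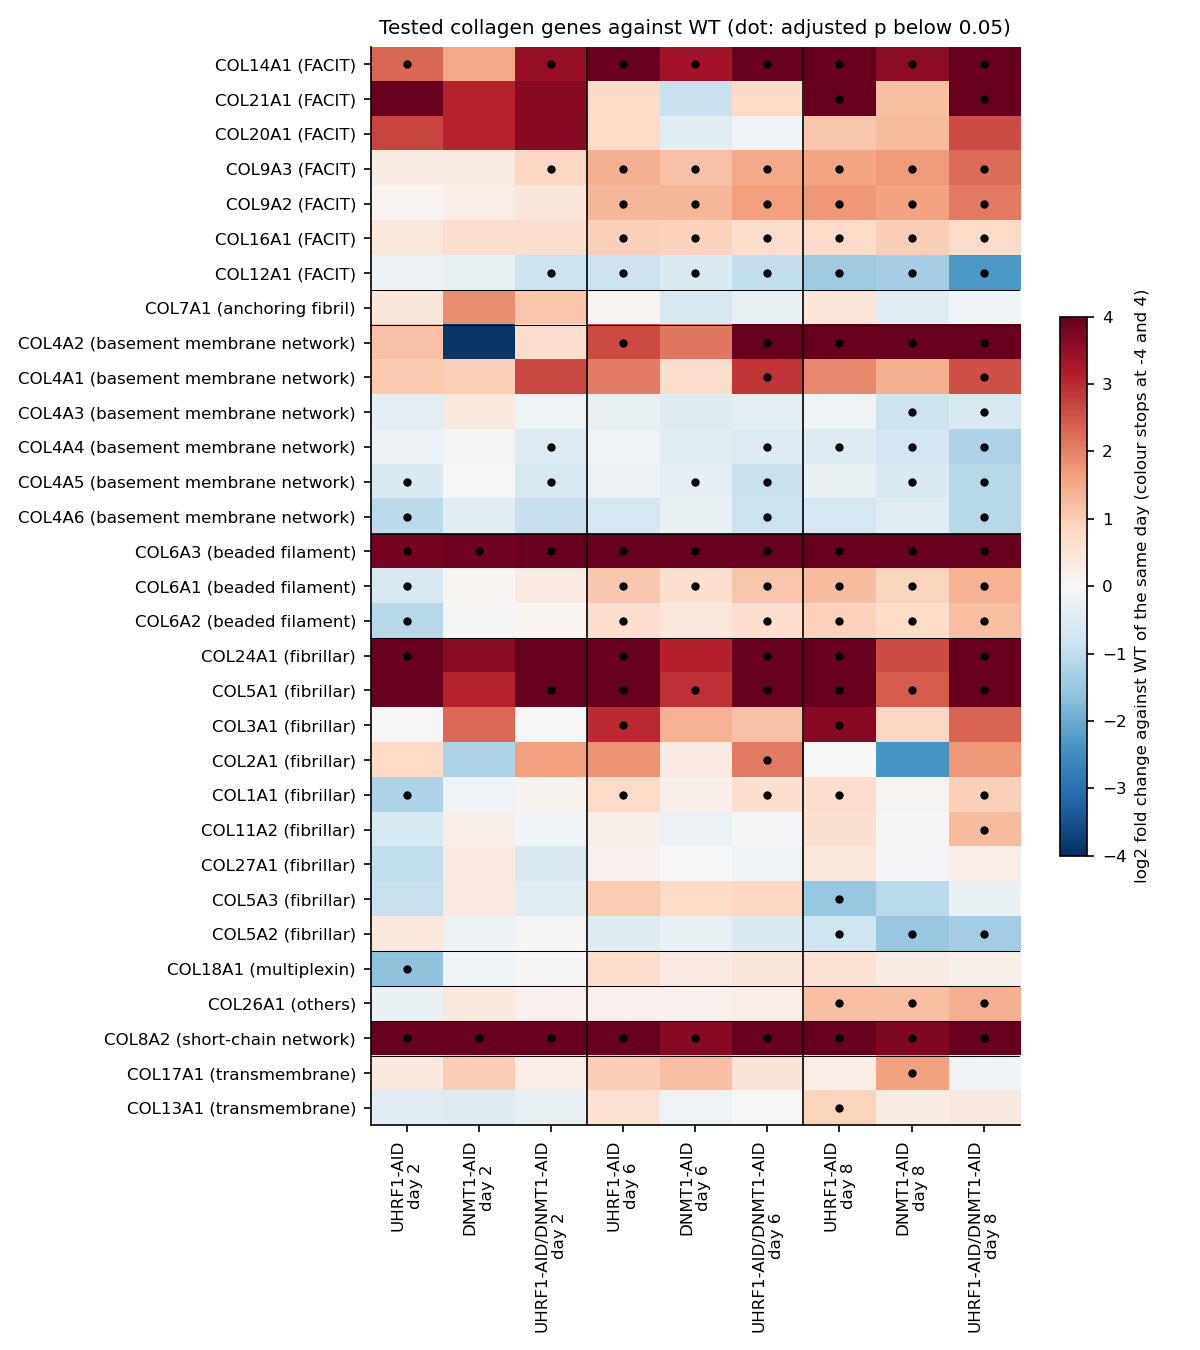
Log2 fold change against WT of the same day for the 31 tested collagen genes (one line of the map each, ordered by class) in the 9 comparisons of a degron line with WT (columns). Colours are limited at 4 in either direction and dots mark an adjusted p below 0.05. COL6A3 and COL8A2 carry a dot in all 9 columns and COL7A1, COL27A1 and COL20A1 in none.

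Among the beaded filament collagens, all 3 chains of the classical type VI trimer were higher than WT in each degron line on day 8, and COL6A3 showed the widest difference. COL6A3, whose chain carries many adhesive von Willebrand factor A domains, stood at 0.208, 0 and 0.108 CPM in WT on day 2, at 0.23, 0.175 and 0.412 on day 6 and at 0.0915, 0.045 and 0.202 on day 8. In UHRF1-AID it stood at 2.32, 1.07 and 1.47 CPM on day 2, 29.4, 24.2 and 18.8 on day 6 and then 21.4, 13.4 and 16.7 on day 8. In UHRF1-AID/DNMT1-AID it stood at 2.81, 2.71 and 2.23 CPM, then 21.2, 23.8 and 28.3, then 16.1, 14.6 and 15.1. Each library of the degron lines lay above each WT library of its day. In DNMT1-AID the values were 0.919, 2.46 and 1.68 CPM on day 2, 15.9, 22.6 and 21.3 on day 6 and then 15, 12.6 and 15.3 on day 8, which also lay above WT. The log2 difference from WT in UHRF1-AID was 3.84 ± 0.56 on day 2, 6.40 ± 0.32 on day 6 and then 7.08 ± 0.38 on day 8 (adjusted p = 4.03e-16), with 3.71 on day 2 when replicate 3 was the lone UHRF1-AID library (adjusted p = 0.000211), and in UHRF1-AID/DNMT1-AID it was 4.52 ± 0.53, 6.42 ± 0.32 and 6.91 ± 0.38.

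COL6A1 and COL6A2, the partner chains of COL6A3, lie in tandem on chromosome 21 and were expressed in WT. COL6A1 stood at 113, 91.9 and 99.6 CPM in WT on day 2, at 184, 202 and 198 on day 6 and at 180, 207 and 207 on day 8. On day 8 it stood at 521, 390 and 487 CPM in the UHRF1-AID line, 386, 340 and 370 in the DNMT1-AID line and 487, 541 and 537 in UHRF1-AID/DNMT1-AID. On day 8 all 9 degron libraries lay above the 3 WT libraries, with log2 differences of 1.23 ± 0.19, 0.88 ± 0.19 and 1.40 ± 0.19 (adjusted p = 6.16e-06, 0.00036 and 2.88e-07). On day 6 the differences were 1.07 ± 0.19, 0.65 ± 0.19 and 1.12 ± 0.19, of which the DNMT1-AID call was lost in 3 of 6 removals of a library (highest adjusted p = 0.0898).

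COL6A2 followed a like order. On day 8 it stood at 224, 238 and 243 CPM in WT, 504, 359 and 479 in the UHRF1-AID line, 396, 385 and 377 in the DNMT1-AID line and 530, 599 and 505 in UHRF1-AID/DNMT1-AID, with no overlap between WT and any degron line. The log2 differences were 0.93 ± 0.18, 0.72 ± 0.18 and 1.21 ± 0.18 (adjusted p = 0.000122, 0.00171 and 1.17e-06). On day 6 COL6A2 was higher in UHRF1-AID by 0.68 ± 0.18 and in UHRF1-AID/DNMT1-AID by 0.67 ± 0.18, and its DNMT1-AID difference of 0.43 ± 0.18 did not pass (adjusted p = 0.114). Per kb, the UHRF1-AID/DNMT1-AID level on day 8 was 102 CPM per kb for COL6A2 (94.8 to 112), 94.3 for COL6A1 (88.0 to 97.8) and 0.71 for COL6A3, so COL6A3 remained far below its partner chains where it was called higher.

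**Figure D2:**
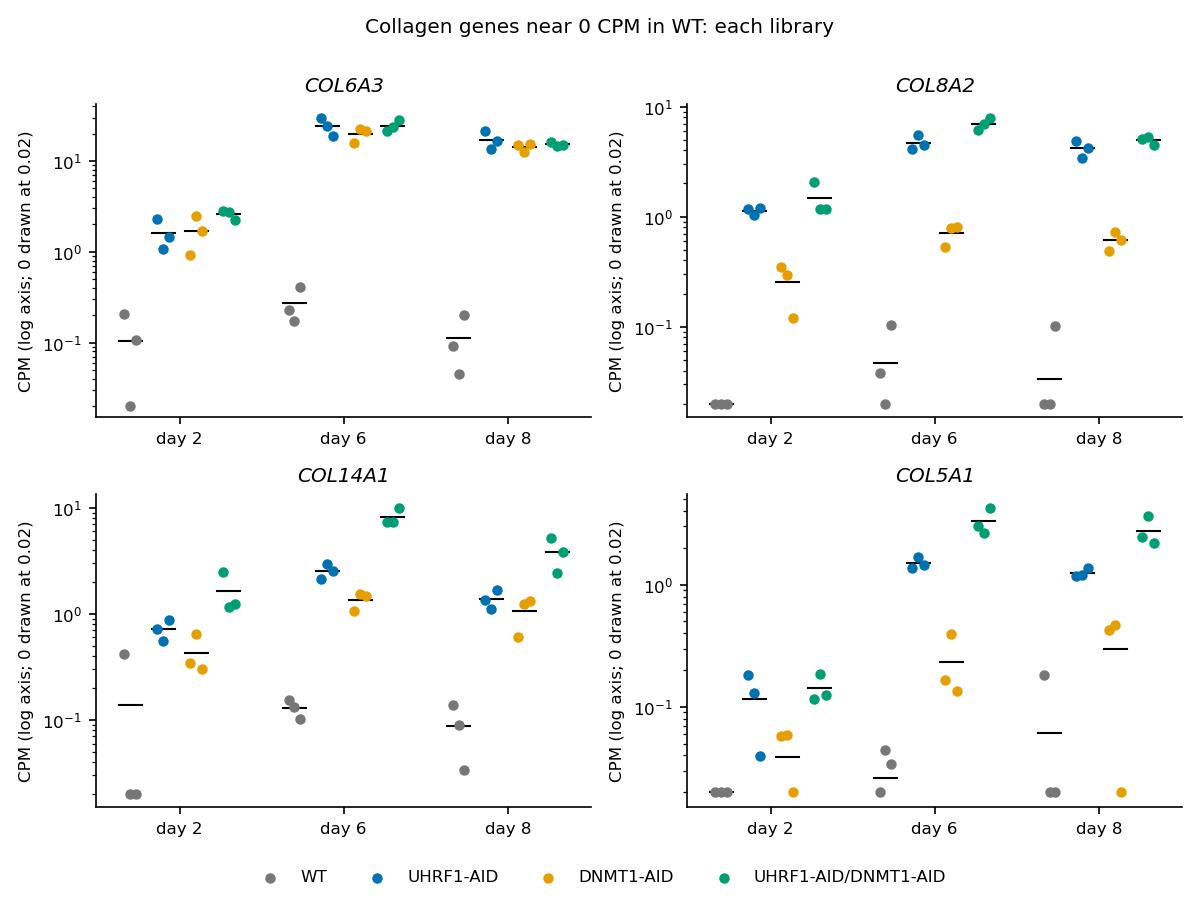
CPM in each library (points, log axis, with 0 drawn at 0.02) of COL6A3, COL8A2, COL14A1 and COL5A1 by line and day; the black line is the mean of 3 libraries. On day 8 the COL6A3 libraries of the 3 degron lines sit between 12.6 and 21.4 CPM and those of WT at or below 0.202, while DNMT1-AID lies below the other degron lines for COL8A2.

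COL8A2, a short-chain collagen of the corneal endothelial membrane, had 0 reads in WT on day 2. Its 3 WT libraries stood at 0.0383, 0 and 0.103 CPM on day 6 and at 0, 0 and 0.101 on day 8. In UHRF1-AID it stood at 1.18, 1.03 and 1.19 CPM on day 2, 4.15, 5.5 and 4.48 on day 6 and then 4.85, 3.41 and 4.23 on day 8. UHRF1-AID/DNMT1-AID stood close to UHRF1-AID, at 2.07, 1.17 and 1.18 CPM, then 6.1, 6.97 and 7.82, then 5.1, 5.25 and 4.43. DNMT1-AID stood between them and WT, at 0.345, 0.293 and 0.12 CPM on day 2, 0.532, 0.786 and 0.812 on day 6 and then 0.486, 0.728 and 0.611 on day 8. All degron libraries lay above the WT libraries of their day.

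Because WT had 0 COL8A2 reads on day 2, the fold there is a lower bound, set against a floor of 3 reads over the WT group. It was at least 21.1-fold higher in the UHRF1-AID line, at least 4.72-fold higher in the DNMT1-AID line and at least 27.6-fold higher in UHRF1-AID/DNMT1-AID. On day 8 WT had 3 reads in all, and the ratios for COL8A2 were 103 (95% counting interval 34.8 to 500.0), 14.6 (4.67 to 73.2) and 121 (40.9 to 588). Such intervals cover counting error only. The DNMT1-AID call of day 2 had an adjusted p of 0.00831, and of 0.0534 without WT replicate 1.

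The lines differed from each other in COL8A2. UHRF1-AID exceeded DNMT1-AID by 2.14 ± 0.42 on day 2, 2.74 ± 0.30 on day 6 and then 2.79 ± 0.31 on day 8 on the log2 scale (adjusted p = 0.000414, 2.16e-07 and 1.48e-07), with no overlap of libraries on any day. With replicate 3 as the lone UHRF1-AID library of day 2 this COL8A2 difference was 2.21 (adjusted p = 0.00882), and that from WT passed (2.05e-06). UHRF1-AID/DNMT1-AID exceeded DNMT1-AID by 2.52 to 3.30. Between UHRF1-AID/DNMT1-AID and UHRF1-AID no difference in COL8A2 passed: the 95% intervals were -0.27 to 1.03 on day 2, 0.06 to 1.06 on day 6 and -0.28 to 0.76 on day 8. COL6A3, by contrast, gave no called difference between UHRF1-AID and DNMT1-AID, with intervals of -0.73 to 0.60, -0.14 to 0.70 and -0.16 to 0.69.

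Among the fibrillar collagens, 9 of 11 genes were tested and COL1A1, COL5A1 and COL24A1 made up most of the calls above WT. COL5A1, which encodes a chain of the type V collagen that starts type I fibrils, had 0 reads in WT on day 2 and stood at 0, 0.0439 and 0.0343 CPM on day 6 and at 0.183, 0 and 0 on day 8. In UHRF1-AID/DNMT1-AID it stood at 0.115, 0.185 and 0.124 CPM on day 2, 3, 2.65 and 4.23 on day 6 and then 2.45, 3.65 and 2.21 on day 8. UHRF1-AID stood at 1.37, 1.68 and 1.45 CPM on day 6 and at 1.17, 1.21 and 1.37 on day 8. On days 6 and 8 the UHRF1-AID libraries thus lay above WT and below UHRF1-AID/DNMT1-AID.

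DNMT1-AID was lower in COL5A1 than the other degron lines, at 0.166, 0.393 and 0.135 CPM on day 6 and 0.425, 0.471 and 0 on day 8, and on day 8 it overlapped WT. Against the 2 WT reads of day 6, the COL5A1 ratio was 125 (95% counting interval 34.2 to 1040.0) in UHRF1-AID/DNMT1-AID and 8.83 (2.1 to 78.8) in DNMT1-AID, and in UHRF1-AID it was 58.7 (16 to 490.0). On day 8 UHRF1-AID/DNMT1-AID exceeded UHRF1-AID by 1.15 ± 0.43 (adjusted p = 0.0281) and DNMT1-AID by 3.10 ± 0.50 (7.79e-06). The COL5A1 calls in UHRF1-AID/DNMT1-AID on day 2 (adjusted p = 0.0446) and in DNMT1-AID on day 6 (0.0487) were lost with any library removed, and that in DNMT1-AID on day 8 (0.0167) in 4 of 6 removals.

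COL1A1, the main chain of type I collagen, was expressed in WT at 8.22, 6.27 and 7.61 CPM on day 2, 36.8, 35.6 and 39.3 on day 6 and then 19.5, 19.7 and 23.1 on day 8. On day 8 it stood at 29.6, 36.3 and 34.3 CPM in the UHRF1-AID line, 21.7, 21.7 and 23.4 in the DNMT1-AID line and 43.8, 44 and 32.6 in UHRF1-AID/DNMT1-AID. UHRF1-AID and UHRF1-AID/DNMT1-AID lay above WT, by 0.68 ± 0.17 and 0.95 ± 0.17 (adjusted p = 0.00177 and 1.77e-05), and DNMT1-AID overlapped it, with a difference of 0.10 ± 0.18. On day 6 the differences were 0.78 ± 0.17, 0.19 ± 0.17 and 0.68 ± 0.17 in the same order. UHRF1-AID exceeded DNMT1-AID in COL1A1 by 0.59 ± 0.17 on day 6 and on day 8 (adjusted p = 0.0197 and 0.0169).

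COL5A2, the second type V chain, went the other way from COL5A1. It stood at 2.06, 1.8 and 1.75 CPM in WT on day 8, at 0.92, 0.99 and 1.27 in the UHRF1-AID line, at 0.546, 0.942 and 0.458 in the DNMT1-AID line and at 0.764, 0.63 and 0.725 in UHRF1-AID/DNMT1-AID. All 9 degron libraries lay below WT, with log2 differences of -0.81 ± 0.29, -1.52 ± 0.32 and -1.40 ± 0.32 (adjusted p = 0.024, 0.000187 and 0.000233), the first lost in 3 of 6 removals of a library. No COL5A2 difference passed on days 2 and 6.

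COL11A2, a chain of type XI collagen, was higher than WT on day 8 in UHRF1-AID/DNMT1-AID, at 3.11, 2.39 and 2.38 CPM against 0.732, 0.809 and 1.65 in WT, a difference of 1.26 ± 0.31 (adjusted p = 0.000623) with no overlap. COL24A1 was looked at after its values were seen: it had 0 reads in all WT libraries and on day 8 stood at 0.255, 0.42 and 0.725 CPM in UHRF1-AID/DNMT1-AID. It was at least 12.3-fold higher there on day 6 and at least 11.9-fold on day 8, and in UHRF1-AID at least 5.92-fold on day 6. The COL24A1 calls in UHRF1-AID on days 2, 6 and 8 (adjusted p = 0.0296, 0.0133 and 0.0471) were lost in 4, 1 and 5 of 6 removals. Those in UHRF1-AID/DNMT1-AID on days 6 and 8 were lost in 0. COL27A1 gave no call in any of the 9 comparisons with WT: its day 6 levels were 7.13, 7.06 and 8.31 CPM in WT, and 6.33, 9.5 and 4.28 in UHRF1-AID/DNMT1-AID, which overlap.

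The FACIT collagens moved in both directions: on day 8 COL9A2, COL9A3, COL14A1 and COL16A1 were called higher and COL12A1 lower than WT in all 3 degron lines. The COL16A1 call in UHRF1-AID/DNMT1-AID (0.76, adjusted p = 0.00508) was lost in 2 of 9 other settings (highest adjusted p = 0.136). Its day 8 calls in UHRF1-AID and DNMT1-AID passed in every alternative. COL9A3, a chain of type IX collagen, which coats cartilage fibrils, stood at 24.8, 23.1 and 29 CPM in WT on day 8. It stood at 73.3, 74.8 and 83.2 CPM in the UHRF1-AID line, 83.4, 71.4 and 95 in the DNMT1-AID line and 109, 145 and 107 in UHRF1-AID/DNMT1-AID. No degron library overlapped WT, and the log2 differences were 1.58 ± 0.19, 1.70 ± 0.19 and 2.22 ± 0.19 (adjusted p = 6.75e-08, 2.74e-08 and 2.79e-11). On day 6 they were 1.41 ± 0.18, 1.16 ± 0.18 and 1.52 ± 0.18, and on day 2 the UHRF1-AID/DNMT1-AID difference of 0.84 ± 0.20 passed (adjusted p = 0.00206), with UHRF1-AID at 0.29 ± 0.20 and DNMT1-AID at 0.29 ± 0.20 not passing. UHRF1-AID/DNMT1-AID exceeded UHRF1-AID by 0.64 ± 0.18 and DNMT1-AID by 0.53 ± 0.18 on day 8.

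COL9A2, the second type IX chain with reads, stood at 2.84, 4.45 and 4.49 CPM in WT on day 8, at 13.3, 9.98 and 15.6 in the UHRF1-AID line, at 12.2, 10.7 and 13.6 in the DNMT1-AID line and at 17.3, 17.8 and 14.9 in UHRF1-AID/DNMT1-AID. All degron libraries lay above WT, by 1.72 ± 0.25, 1.62 ± 0.25 and 2.08 ± 0.25. The third chain of type IX, COL9A1, had 1 read over the 36 libraries. COL14A1, which binds fibrils through decorin, was near 0 in WT, at 0.137, 0.0899 and 0.0337 CPM on day 8, and stood at 1.35, 1.1 and 1.69 in the UHRF1-AID line, 0.607, 1.24 and 1.32 in the DNMT1-AID line and 5.2, 2.43 and 3.82 in UHRF1-AID/DNMT1-AID. UHRF1-AID/DNMT1-AID lay above both single lines in COL14A1 on day 8, by 1.45 ± 0.36 over UHRF1-AID and 1.88 ± 0.38 over DNMT1-AID (adjusted p = 0.00129 and 0.000121). The day 2 call of COL14A1 in UHRF1-AID (adjusted p = 0.00618) was lost without WT replicate 3 (adjusted p = 0.0506) and with the 6 libraries of the comparison fitted alone (0.0769), and passed with replicate 3 as the lone UHRF1-AID library (2.57, adjusted p = 0.0265).

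COL12A1, a large FACIT collagen of tendon and ligament that also lies near basement membranes, was called lower than WT in 7 of the 9 comparisons, more than any other collagen gene. It stood at 34.6, 28.8 and 30.1 CPM in WT on day 2, 118, 108 and 114 on day 6 and then 47.1, 53.5 and 54.2 on day 8. On day 8 it stood at 23, 12.8 and 22 CPM in the UHRF1-AID line, 20.4, 18.4 and 21.2 in the DNMT1-AID line and 12.2, 7.56 and 11.5 in UHRF1-AID/DNMT1-AID. The day 8 libraries of all degron lines lay below WT, with differences of -1.42 ± 0.19, -1.37 ± 0.20 and -2.31 ± 0.21 (adjusted p = 9.47e-07, 1.92e-06 and 1.06e-10). UHRF1-AID/DNMT1-AID was lower than UHRF1-AID by -0.89 ± 0.21 and than DNMT1-AID by -0.95 ± 0.21 (log2). The DNMT1-AID call of day 6, -0.57 ± 0.18 (adjusted p = 0.0391), was lost with any 1 library removed.

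**Figure D3:**
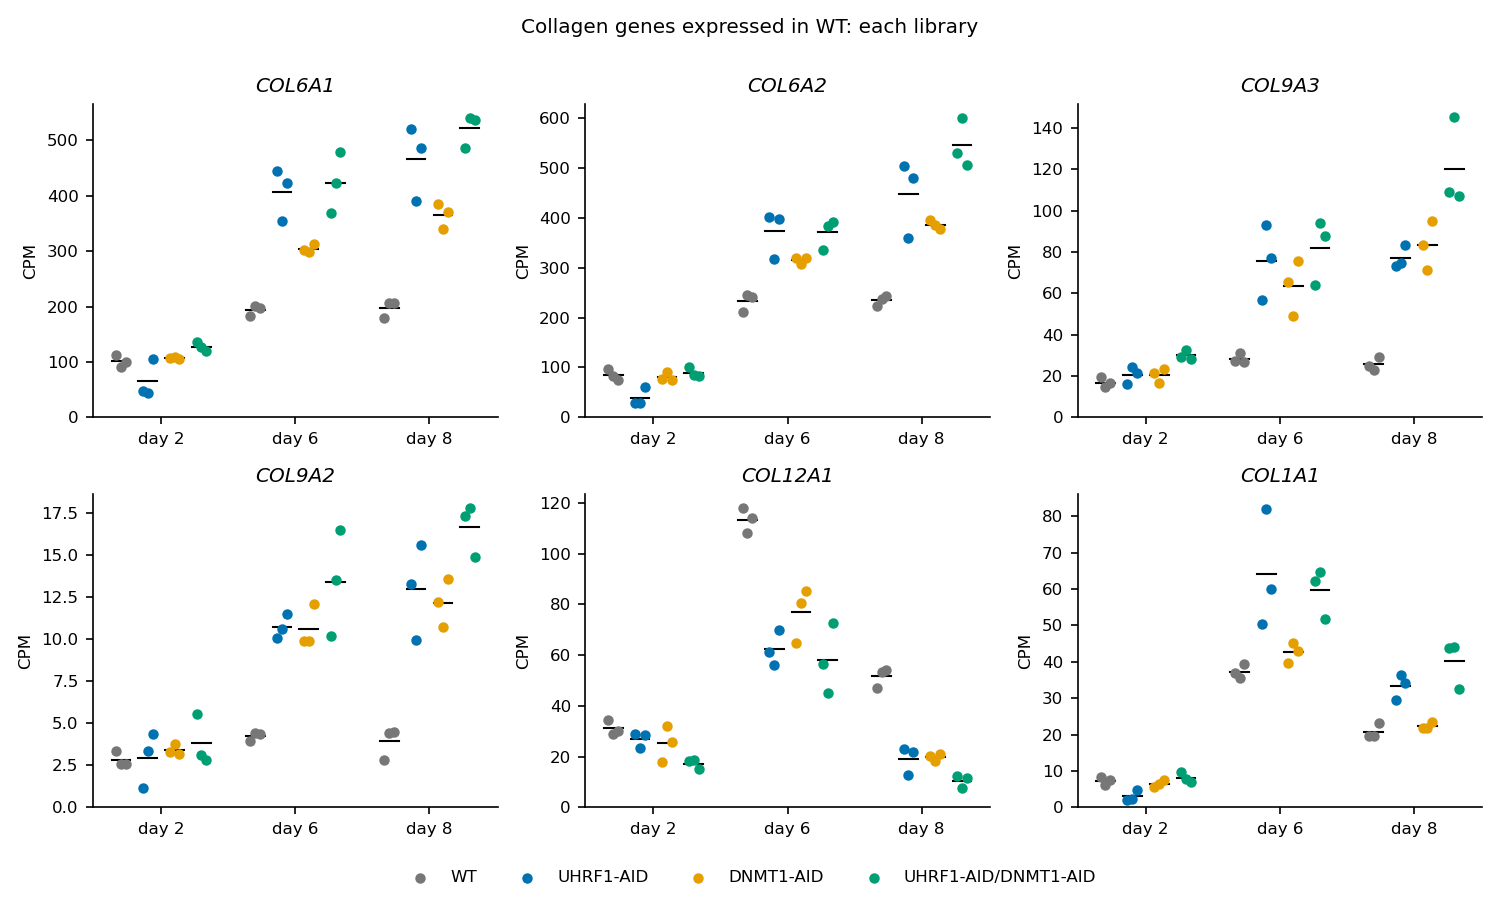
CPM in each library (points) of 6 collagen genes expressed in WT, by line and day; each panel has its own linear axis from 0 and the black line is the mean of 3 libraries. On day 8 the degron libraries sit above WT for COL6A1, COL6A2, COL9A3 and COL9A2 and below it for COL12A1, where WT was at 47.1 to 54.2 CPM.

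The 6 type IV genes lie as 3 head-to-head pairs, with starts 1345 bases apart for COL4A1 and COL4A2, 171 for COL4A4 and COL4A3, and 341 for COL4A6 and COL4A5. Where called against WT, COL4A1 and COL4A2 were higher, while the genes of the other pairs were lower. COL4A5, a chain of the specialised basement membrane of the kidney, stood at 30.2, 34.9 and 28.5 CPM in WT on day 8, at 23.4, 24.9 and 28 in the UHRF1-AID line, at 22.9, 17.5 and 22.5 in the DNMT1-AID line and at 17.3, 12.8 and 13.1 in UHRF1-AID/DNMT1-AID. All degron libraries lay below WT, and the differences were -0.29 ± 0.13, -0.57 ± 0.13 and -1.12 ± 0.13, of which the first did not pass (adjusted p = 0.055, 0.000414 and 3.55e-09). In UHRF1-AID/DNMT1-AID it was also lower on day 2, by -0.65 ± 0.13, and on day 6, by -0.89 ± 0.12. On day 2 COL4A5 was called lower in UHRF1-AID too, by -0.57 (adjusted p = 0.00118). That call passed with any 1 library left out and was lost in 1 of 10 other settings. With replicate 3 as the lone UHRF1-AID library the COL4A5 difference was -0.37. UHRF1-AID/DNMT1-AID was lower in COL4A5 than UHRF1-AID by -0.66 ± 0.12 on day 6 and -0.83 ± 0.13 on day 8 (adjusted p = 0.000517 and 5.52e-06).

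COL4A4, a partner of COL4A5 in the same trimer, stood at 8.83, 8.9 and 8 CPM in WT on day 8, 5.81, 5.43 and 6.57 in the UHRF1-AID line, 5.22, 5.31 and 4.38 in the DNMT1-AID line and 3.87, 3.02 and 4.07 in UHRF1-AID/DNMT1-AID. The libraries fell into that order without overlap between WT and any degron line, with differences of -0.53 ± 0.16, -0.78 ± 0.16 and -1.23 ± 0.17 (adjusted p = 0.00652, 0.000165 and 7.46e-08). COL4A3, the third chain of that trimer, stood at 3.48, 2.16 and 2.87 CPM in WT on day 8 and at 1.88, 1.54 and 1.32 in DNMT1-AID, a difference of -0.82 ± 0.27 (adjusted p = 0.0122) lost in 2 of 6 removals. In UHRF1-AID/DNMT1-AID it overlapped WT (2.85, 1.13 and 1.65 CPM), and its call (adjusted p = 0.0437) was lost in 4 of 6. COL4A4 in UHRF1-AID/DNMT1-AID on day 2, at -0.53 ± 0.18 (0.0247), was lost in 3 of 6 removals, and COL4A5 in DNMT1-AID on day 6 (0.0489) in 5 of 6.

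COL4A2, which with COL4A1 makes the type IV collagen of nearly all basement membranes, was at or near 0 in WT, at 0, 0.222 and 0 CPM on day 2, 0.153, 0 and 0 on day 6 and 0 in all 3 libraries on day 8. UHRF1-AID/DNMT1-AID stood at 0.115, 0.0615 and 0.186 CPM on day 2, 0.881, 1.34 and 0.907 on day 6 and then 1.12, 0.966 and 0.644 on day 8. On day 8 COL4A2 was at least 22.0-fold higher than WT there, at least 10.5-fold higher in UHRF1-AID and at least 2.91-fold higher in DNMT1-AID. The UHRF1-AID/DNMT1-AID libraries lay above WT on days 6 and 8, and exceeded DNMT1-AID by 2.10 ± 0.65 and 2.83 ± 0.75. The calls in UHRF1-AID on day 6 (adjusted p = 0.0395) and DNMT1-AID on day 8 (0.0351) were lost in 4 and 5 of 6 removals. On day 8 in UHRF1-AID/DNMT1-AID, then, COL4A1 and COL4A2 were called higher and COL4A3, COL4A4, COL4A5 and COL4A6 lower than WT. COL4A1 and COL4A6 are named here after their values were seen: COL4A1 differed by 2.58 ± 1.03 (adjusted p = 0.0267), lost in 4 of 6 removals, and COL4A6 by -1.11 ± 0.35 (0.00522), lost in 1 of 6.

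**Figure D4:**
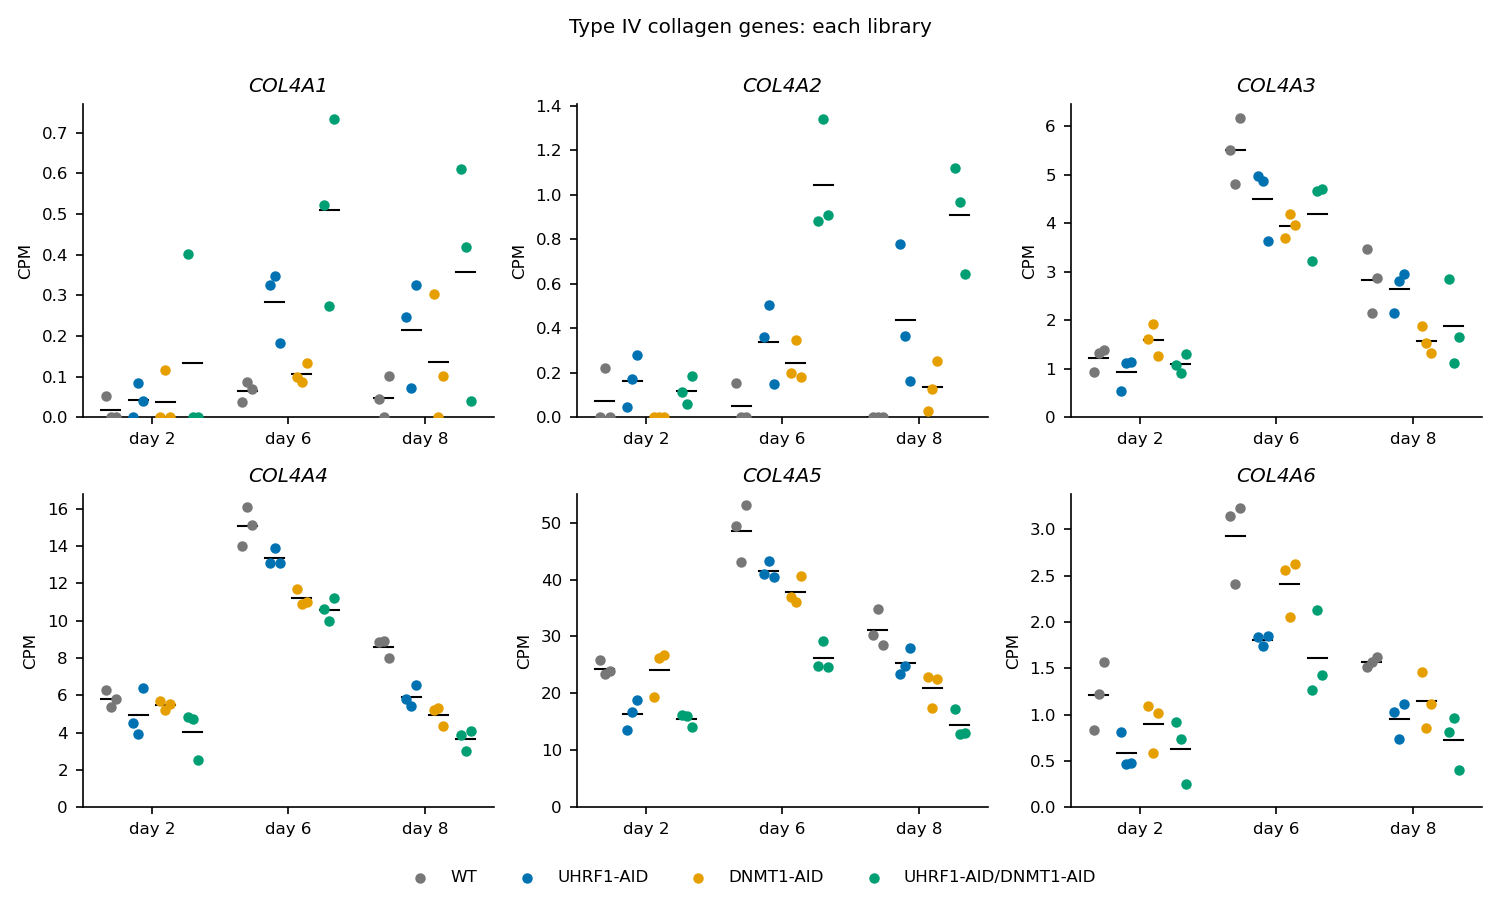
CPM in each library (points) of the 6 type IV collagen genes by line and day; each panel has its own linear axis from 0 and the black line is the mean of 3 libraries. On day 8 COL4A2 sits at 0 in WT and at 0.644 to 1.12 CPM in UHRF1-AID/DNMT1-AID, while COL4A4 and COL4A5 are lower in that line than in WT.

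COL18A1, the basement membrane proteoglycan whose C-terminal fragment is endostatin, stood at 236, 240 and 237 CPM in WT on day 8, 405, 267 and 392 in the UHRF1-AID line, 313, 275 and 300 in the DNMT1-AID line and 247, 294 and 283 in UHRF1-AID/DNMT1-AID. No degron library was below WT on day 8, but no difference passed: they were 0.58 ± 0.26, 0.31 ± 0.26 and 0.21 ± 0.26 (adjusted p = 0.0716, 0.33 and 0.484). Its exons overlap those of SLC19A1 on the opposite strand over 18.47% of their length, and the featureCounts strand setting is not given in the sources used here. The study counted transposable elements in its RNA-seq reads without strand.

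On day 2 COL18A1 was lower in UHRF1-AID, at 13.7, 14.5 and 44.5 CPM in replicates 1, 2 and 3 against 90.6, 70.2 and 61.6 in WT. COL6A1 stood at 47.2, 43.5 and 106 CPM, COL6A2 at 28, 28.1 and 61.1 and COL1A1 at 2.04, 2.4 and 4.92 in the same libraries. Replicate 3 was the highest of the 3 for each of these 4 genes, and for COL6A1 it lay among the WT libraries of 113, 91.9 and 99.6 CPM. The differences from WT were -1.61 ± 0.28 for COL18A1, -1.12 ± 0.19 for COL6A2, -1.22 ± 0.23 for COL1A1 and -0.63 ± 0.19 for COL6A1. With replicate 3 as the lone library of its group, a choice made after seeing the data, 1 collagen gene, COL18A1, was called lower in place of 6, and COL6A1 turned to 0.07 (adjusted p = 0.841). Fitting only the 6 libraries of the comparison gave 2 lower genes, with COL18A1 at an adjusted p of 0.112, COL6A2 at 0.0877 and COL6A1 at 0.334. The part of replicates 1 and 2 in these differences cannot be told apart from that of the line.

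**Figure D5:**
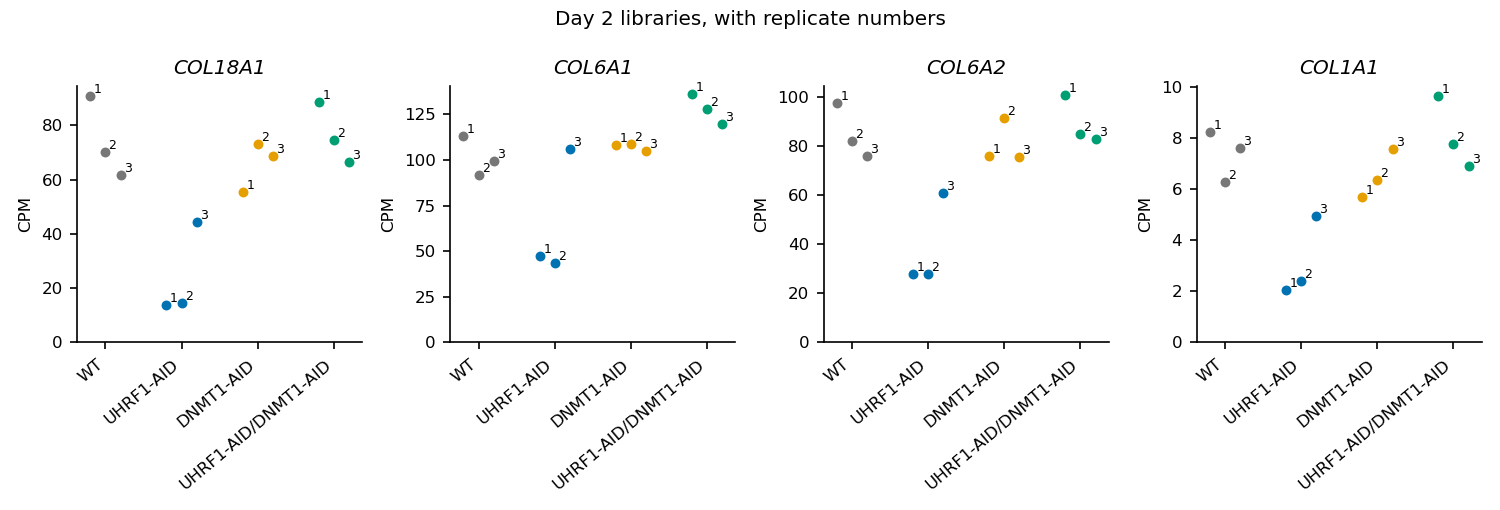
CPM on day 2 in each library of COL18A1, COL6A1, COL6A2 and COL1A1 by line, with the replicate number beside each point and linear axes from 0. In UHRF1-AID replicates 1 and 2 sit well below replicate 3, which for COL18A1 was at 44.5 CPM.

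The remaining classes held few calls. COL17A1, a transmembrane collagen of the hemidesmosome, stood at 2.73, 3.55 and 1.83 CPM in DNMT1-AID on day 8 against 0.595, 0.63 and 1.38 in WT, which do not overlap, a difference of 1.60 ± 0.47 (adjusted p = 0.00515). Its UHRF1-AID/DNMT1-AID libraries, at 0.662, 0.798 and 0.926 CPM, fell within the WT range, and were lower than DNMT1-AID by -1.76 ± 0.48 (adjusted p = 0.00309). COL17A1 was thus called above WT in DNMT1-AID and not in UHRF1-AID/DNMT1-AID, and the difference between these 2 lines passed.

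COL13A1, a transmembrane collagen of cell junctions and neuromuscular synapses, stood at 11.6, 5.91 and 11.8 CPM in UHRF1-AID on day 8 and 4.12, 5.08 and 6.58 in WT. The groups overlapped, and its call (0.89 ± 0.29, adjusted p = 0.0123) was lost in 3 of 6 removals. COL26A1, a collagen of developing gonads, was higher than WT on day 8 in UHRF1-AID/DNMT1-AID, at 0.866, 1.05 and 0.725 CPM against 0.412, 0.27 and 0.304, by 1.41 ± 0.50 (adjusted p = 0.0126), a call lost with the GC and length offset (adjusted p = 0.197, and from 0.00615 to 0.208 over the alternatives). Its calls in UHRF1-AID (0.0496) and DNMT1-AID (0.046) were lost in 5 and 6 of 6 removals. COL7A1, which rose with days in WT, gave no call against WT: on day 6 it stood at 2.68, 2.19 and 2.33 CPM in WT, 2.49, 2.28 and 3.06 in the UHRF1-AID line, 1.6, 1.27 and 1.8 in the DNMT1-AID line and 1.63, 2.44 and 1.73 in UHRF1-AID/DNMT1-AID.

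The degron lines were also compared with each other, which does not use WT. On day 8 UHRF1-AID/DNMT1-AID against DNMT1-AID gave 12 higher and 4 lower collagen genes (46.1% of all tested genes called), UHRF1-AID/DNMT1-AID against UHRF1-AID 3 higher and 3 lower (43.8%), and UHRF1-AID against DNMT1-AID 5 higher and 1 lower (18.3%). The second of these, 6 of 31 tested collagen genes, was below its background share. On day 6 the counts were 6 higher and 1 lower (23.1%), 1 and 1 (10.8%), and 3 and 0 (10.6%), the 3 being COL8A2, COL5A1 and COL1A1. On day 2 they were 2 and 1 (10.8%), 5 and 1 (17.7%), and 1 and 5 (19.9%), where the last 2 rest on the UHRF1-AID libraries described above: with replicate 3 alone they became 2 and 0, and 1 and 0. On day 8 the UHRF1-AID against DNMT1-AID count of 6 fell to 2 without UHRF1-AID replicate 3.

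The change of each difference from WT between days 2 and 8 was tested as an interaction. It was positive for 8 and negative for 1 collagen gene in the UHRF1-AID line (17.8% of all tested genes called), 5 and 4 in the DNMT1-AID line (16.3%) and 6 and 4 in UHRF1-AID/DNMT1-AID (38.7%). COL9A2, COL9A3, COL6A1 and COL6A2 were positive and COL12A1 negative in all 3 lines, which share the WT libraries, but not all of these calls were stable. In DNMT1-AID COL6A1 was lost in 11 of 12 removals of a library, COL6A2 in 10 and COL9A2 in 2. In UHRF1-AID, with replicate 3 as the lone library of day 2, COL9A2 was lost (1.1, adjusted p = 0.0629), as was COL6A3 (3.37, adjusted p = 0.0691), while COL9A3, COL6A1, COL6A2 and COL12A1 passed. For COL9A3 the change was 1.29 ± 0.27 in the UHRF1-AID line, 1.41 ± 0.27 in the DNMT1-AID line and 1.38 ± 0.27 in UHRF1-AID/DNMT1-AID, and for COL12A1 it was -1.21 ± 0.27, -1.06 ± 0.28 and -1.46 ± 0.29. Of the 9 DNMT1-AID calls, 2 passed with every 1-library removal, and with the GC and length offset 2 genes were called in place of 9.

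Of the 13 collagen genes that were not tested, COL25A1 had the most reads, 138 over the 36 libraries, followed by COL15A1 with 87, COL1A2 with 71, COL11A1 with 57, COL23A1 with 54 and COL28A1 with 51. COL10A1 had 13, COL8A1 11, COL6A6 7 and COL9A1 1. COL1A2 had 0 reads in WT on each day, 23 and 16 reads in UHRF1-AID/DNMT1-AID on days 6 and 8, 11 and 5 in UHRF1-AID and 3 and 11 in DNMT1-AID. The 11 DNMT1-AID reads of day 8 were all in replicate 1. Against a floor of 3 reads over the WT group, COL1A2 was at least 6.9-fold and 5.76-fold higher in UHRF1-AID/DNMT1-AID on days 6 and 8, with no test. COL1A2 and COL11A1 were singled out after their reads were seen. COL11A1 had 1 read in WT on day 6 and 19 in UHRF1-AID/DNMT1-AID, a ratio of 17.1 (95% counting interval 2.72 to 711.0).

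Genes that act on collagen were counted in 5 lists, as counts and medians without a test of the list. Of 19 tested genes for modification and folding, 13 were higher and 5 lower than WT in UHRF1-AID/DNMT1-AID on day 8, where 68.5% of all tested genes were called, with a list median of 0.59 against 0.03 for all. The higher ones included PPIB, a prolyl isomerase that helps the triple helix form, at 1.40 ± 0.11, and P4HB, a subunit of prolyl 4-hydroxylase, at 0.88 ± 0.08, and the lower ones CRTAP, a partner of prolyl 3-hydroxylase, at -0.74 ± 0.10. On day 8 the same list had 11 higher and 1 lower in UHRF1-AID, where 45.3% of all tested genes were called, and 8 and 2 in DNMT1-AID, where 47.5% were.

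Of 12 tested genes for processing and cross-linking, 6 were higher and 0 lower in UHRF1-AID/DNMT1-AID on day 8 (list median 0.52), a smaller share than the 68.5% of all tested genes called, among them PCOLCE, an enhancer of procollagen C-proteinase, at 2.29 ± 0.20, and LOXL4, a lysyl oxidase, at 1.90 ± 0.18. In DNMT1-AID on that day 4 were higher and 2 lower, against 47.5% of all tested genes, the latter including ADAMTS2, the procollagen N-proteinase, at -2.78 ± 0.34. The 9 tested collagen receptors had a list median of -0.55 in UHRF1-AID/DNMT1-AID on day 8, with 2 higher and 4 lower, close to the share of all tested genes called there. The integrin chains ITGB1 and ITGA2, which together bind collagen, stood at -0.95 ± 0.07 and -1.15 ± 0.09 there, and MRC2, an endocytic collagen receptor, at 0.96 ± 0.21.

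Among 15 tested basement membrane partners, 7 were higher and 4 lower in UHRF1-AID/DNMT1-AID on day 8 (list median 0.41), near the 68.5% called among all tested genes, with HSPG2 (perlecan) at 1.78 ± 0.34, LAMA5, a laminin chain, at 0.66 ± 0.09 and LAMC1, another, at -0.91 ± 0.11. Among 11 tested genes of TGF-beta signalling, a pathway known to raise collagen transcription, 3 were higher and 5 lower (list median -0.14), again near that share, with CCN2, a TGF-beta target, at 1.77 ± 0.20 and SMAD4, the shared SMAD, at -0.83 ± 0.08. On day 2 each of the 5 lists had at most 1 call in DNMT1-AID.

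Markers of other cell types were measured beside the collagen genes. The 7 markers of colorectal epithelium summed to 5850 to 5890 CPM in WT on day 2 and 5780 to 5870 on day 8. CDX1 was at 0 in WT. The epithelial sum of day 8 reached furthest for the DNMT1-AID line, from 9190 to 10700 CPM. The UHRF1-AID/DNMT1-AID libraries followed with 7460 to 9440 CPM, which overlaps that range. UHRF1-AID libraries, with 5780 to 6950 CPM, overlapped WT. KRT8, KRT18 and KRT19 made up most of the epithelial sum. KRT8 and KRT18 had mean CPM of 3710 and 2090 in UHRF1-AID/DNMT1-AID on day 8, against 2460 and 807 in WT. KRT19 and VIL1 had lower means there than in WT, at 1970 and 10.5 against 2090 and 15.2. The means of EPCAM, CDH1 and CDX1 were higher there. The 9 fibroblast markers summed to 32.7 to 39.7 CPM in WT on day 8 and 38.8 to 43.0 in the DNMT1-AID line. Their sum was 53.2 to 78.1 CPM in the UHRF1-AID line and 56.6 to 78.3 in UHRF1-AID/DNMT1-AID. FBLN1 made up most of that sum, with mean CPM of 36.8, 55.0 and 49.0 in WT, UHRF1-AID and UHRF1-AID/DNMT1-AID on day 8. THY1 was at 0 in WT and at 8.29 and 17.1 CPM in the other two, and POSTN was at 0 in all libraries. On day 8 DCN, LUM, PDGFRA and MFAP5 had mean CPM of at most 0.367 in every line, and PDGFRB of at most 0.774. FAP was at 0.0112 CPM in WT and at 0 in the degron lines. Endothelial markers summed to at most 5.37 CPM and leukocyte markers to at most 5.6. On day 8 the endothelial sum was 0.686 to 1.57 CPM in WT and 1.07 to 1.33 in DNMT1-AID. It was 1.58 to 3.08 in UHRF1-AID and 3.34 to 5.37 in UHRF1-AID/DNMT1-AID. The leukocyte sum on that day was 0.0675 to 0.183 CPM in WT and 0.698 to 1.63 in DNMT1-AID. It was 1.38 to 2.09 in UHRF1-AID and 3.9 to 5.6 in UHRF1-AID/DNMT1-AID. The part of these genes in the collagen differences was not tested.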

How the data were processed

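RNA-seq counts were taken from 36 libraries of 4 HCT116 lines on days 2, 6 and 8 (groups from the labels). The deposited values are raw counts per gene. Per the study's methods and processing notes, the authors trimmed reads with Trim Galore, aligned them to hg38 with STAR and counted them with featureCounts, with no normalization. Of 60648 gene identifiers, 186 did not match GENCODE release 44 (its annotation gave names, classes of transcript and coordinates on GRCh38). The 36 files were checked for identical values, and 0 pairs were found.

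Protein-coding counts were filtered with edgeR 4.0.16 (R 4.3.3) filterByExpr at a minimum count of 10 over the 12 groups, scaled by TMM and fitted with 1 mean per group (24 residual degrees of freedom). Contrasts were tested with the robust two-sided quasi-likelihood F test and Benjamini-Hochberg adjustment over 15415 genes, in 24 comparisons. SE was the log2 difference over the root of F, and 95% intervals used 24 degrees of freedom. On simulated counts for UHRF1-AID/DNMT1-AID against WT on day 8 the test was checked before use. DESeq2, the tool the authors used, was run as an alternative (DESeq2 1.42.0). It was 1 fit over all 36 libraries of the same filtered genes, not a rerun of the authors' own analysis. Other alternatives were DESeq2 size factors, library-total scaling, no filter, all annotated genes, a GC and length offset, a replicate block, the compared groups alone and leaving out each library.

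Values in every library were given for up to 16 tested genes with the largest called difference from WT, at a mean of at least 1 CPM in a group, for the 4 other tested genes of the highest level, and for a gene of each class left without one. The collagen genes and the lists were chosen with earlier results of these data known. Promoter letters came from RefSeq (GRCh38.p14). Totals of 21074536 to 37175136 reads per library set the precision: a group with 0 reads of a gene allows up to 3. Days 0 and 4 were not analysed here.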

Additional observations from a re-analysis of the deposited data

Results flagged for a closer look

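The difference from WT changed between day 2 and day 8 for 28 pairs of a collagen gene and a degron line. Each was tested as an interaction with edgeR's quasi-likelihood test over all 36 libraries. For the UHRF1-AID line 29% of the tested collagen genes were called, where 17.8% of all tested genes were. The DNMT1-AID line had the same collagen share of 29% and a background of 16.3%. The UHRF1-AID/DNMT1-AID share, 32.3%, lay below its background of 38.7%. The lines share the WT libraries, so the 3 sets of values are not independent.

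In UHRF1-AID the log2 difference grew by 3.24 ± 1.14 for COL6A3 (adjusted p = 0.0457), 1.29 ± 0.27 for COL9A3, 1.65 ± 0.39 for COL9A2, 2.18 ± 0.38 for COL18A1, 1.86 ± 0.27 for COL6A1, 1.90 ± 0.29 for COL1A1, 2.06 ± 0.26 for COL6A2 and 1.30 ± 0.43 for COL13A1, and it changed by -1.21 ± 0.27 for COL12A1. COL18A1, COL6A1, COL6A2 and COL1A1 are the genes with low day 2 values in UHRF1-AID replicates 1 and 2, whose part was not tested beyond the fit with replicate 3 alone. COL6A3 was lost in 8 of 12 removals of a library and COL13A1 in 7. With replicate 3 as the lone UHRF1-AID library of day 2, COL6A3 (3.37, adjusted p = 0.0691), COL9A2 (1.1, adjusted p = 0.0629) and COL13A1 (0.79, adjusted p = 0.417) did not pass and the other 6 did.

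In DNMT1-AID the values were 1.41 ± 0.27 for COL9A3, 1.37 ± 0.40 for COL9A2, 0.80 ± 0.27 for COL6A1, 0.79 ± 0.26 for COL6A2, -1.06 ± 0.28 for COL12A1, -0.69 ± 0.24 for COL4A4, -0.56 ± 0.18 for COL4A5 and -1.21 ± 0.42 for COL4A3. COL4A2 had a fitted 8.51 ± 2.92, but DNMT1-AID had 0 reads of it on day 2 and WT 0 on day 8, so the size is not interpretable. COL9A3 and COL12A1 passed in every 1-library removal, and the other 7 did not.

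In UHRF1-AID/DNMT1-AID the values were 1.38 ± 0.27 for COL9A3, 1.64 ± 0.39 for COL9A2, 1.06 ± 0.27 for COL6A1, 0.81 ± 0.27 for COL1A1, 1.14 ± 0.26 for COL6A2, -1.46 ± 0.29 for COL12A1, -1.44 ± 0.51 for COL5A2, -0.70 ± 0.24 for COL4A4 and -0.47 ± 0.19 for COL4A5. COL4A2, at a fitted 6.74 ± 2.23, again rests on 0 WT reads on day 8, and its adjusted p was 1.0 without WT day 2 replicate 2. In this line COL4A5 was lost in 8 of 12 removals, COL5A2 in 5, COL4A4 in 3 and COL1A1 in 2.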

How the results depend on the processing

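For named collagen genes, 2384 values were compared under the settings other than removal of a library. Of these, 2264 kept their side of the threshold, 85 lost and 34 gained a call, and 1 called value reversed. That was COL6A1 in UHRF1-AID against WT on day 2, from -0.63 to 0.07 with replicate 3 as the lone library of its group. Values called in neither fit were counted as kept whatever their direction. Of 1980 values with 1 library left out, 1798 kept their side of the threshold, 160 lost and 22 gained a call.

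Counts of called collagen genes moved by over 1.5 times as follows. With the compared groups fitted alone they were 4 in place of 10 (UHRF1-AID against WT, day 2), 1 in place of 2 (DNMT1-AID against WT, day 2), 16 in place of 10 (DNMT1-AID against WT, day 6), 1 in place of 6 (UHRF1-AID against DNMT1-AID, day 2), 3 in place of 6 (UHRF1-AID/DNMT1-AID against UHRF1-AID, day 2), 5 in place of 3 (UHRF1-AID/DNMT1-AID against DNMT1-AID, day 2), 5 in place of 3 (UHRF1-AID against DNMT1-AID, day 6), 4 in place of 2 (UHRF1-AID/DNMT1-AID against UHRF1-AID, day 6) and 2 in place of 6 (UHRF1-AID against DNMT1-AID, day 8). The spread is then estimated from 6 libraries. DESeq2 called 5 in place of 3 for UHRF1-AID/DNMT1-AID against DNMT1-AID on day 2. With UHRF1-AID day 2 replicate 3 alone, chosen after seeing the data, the counts were 4 against WT, 1 against DNMT1-AID and 2 for UHRF1-AID/DNMT1-AID against UHRF1-AID, and the lone library is assumed to vary like the other groups. With the GC and length offset, 7 in place of 14 were called for WT day 8 against day 2 and 2 in place of 9 for the DNMT1-AID change between days 2 and 8, and with the replicate block added 7 and 3. The cause of these moves was not tested.

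Removal of 1 library gave 6 to 8 genes in place of 10 for DNMT1-AID against WT on day 6, 4 to 8 in place of 7 for UHRF1-AID/DNMT1-AID against DNMT1-AID on day 6, 2 to 5 in place of 6 for UHRF1-AID against DNMT1-AID on day 8 and 3 to 7 in place of 9 for the DNMT1-AID change. The replicate numbers did not pair the samples: deviations of same-numbered libraries from their group means correlated at -0.0644 to 0.0911. The replicate block kept 260 of 264 values, with 2 calls lost and 2 gained. Depth limits genes near 0 in WT, where a group of 3 libraries with 0 reads allows up to 3.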
